A study of Mus musculus with 12 samples.

Results

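Fibroblast growth factors (FGFs) and their receptors were read in embryonic mouse lung through 10 genes chosen by name among the 16593 named genes of the array: the ligands Fgf1, Fgf7, Fgf9, Fgf10 and Fgf18, the FGF homologous factor Fgf13, and the receptors Fgfr1, Fgfr2, Fgfr3 and Fgfr4. The platform annotation assigned 19 of the 25697 probes on the bead array to these genes. Of those, 13 probes of 9 genes were above background (detection p under 0.01) on at least 4 of 12 arrays and entered the tests, among 11841 probes in all. In brief, Fgf1 and Fgfr3 were higher and Fgf13 was lower in lungs whose genotype removes both Mek genes from mesenchyme than in controls, and Fgf13 was also lower where 1 Mek1 allele remained. Each of these results rests on 1 probe. With array brightness as a covariate, or without the 2 brightest arrays (both controls), none of these differences from controls passed the threshold. Fgf7, Fgf9, Fgf10, Fgfr1, Fgfr2 and Fgfr4 passed the threshold in no comparison, and Fgf18 was not measured above background.

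All lungs were taken at E15.5, in late branching of the embryonic lung, from mice labelled with the background strain 129/Sv, and every embryo, controls included, carried 1 Dermo1-Cre allele (Dermo1+/Cre), which expresses Cre recombinase from the Twist2 (Dermo1) locus in embryonic mesenchyme. The 4 controls carried that driver alone. The second group, Mek1+/flox;Mek2-/-;Dermo1+/Cre, had no intact Mek2 gene in any cell and 1 floxed and 1 intact Mek1 allele, and is called here 1 Mek1 allele (n = 4). In the third, Mek1flox/flox;Mek2-/-;Dermo1+/Cre, Mek2 was again inactivated everywhere and both Mek1 alleles were floxed, and it is called here double mutant (n = 4). Epithelium and other cells outside the Dermo1-Cre lineage keep Mek1 in both mutant groups. RNA came from whole lung, so that a change in the share of a cell type and a change of RNA per cell cannot be told apart. Whether each specimen came from 1 embryo or several is not stated in the labels, and p-values therefore speak of the spread among these specimens.

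FGFs are signalling proteins that bind receptor tyrosine kinases together with heparan sulfate and activate, among other routes, the Ras, Raf, MEK and ERK cascade. In the developing lung, Fgf10 from the distal mesenchyme acts on Fgfr2 in the epithelium and drives branching, and Fgf9 from mesothelium and epithelium acts back on the mesenchyme. The kinases MEK1 (gene Map2k1) and MEK2 (gene Map2k2) are the step of that cascade just above ERK, shared by FGF receptors and other receptor tyrosine kinases.

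Each array had 10467 to 11878 probes over background, and raw upper quartiles ran from 226.6 to 390.1 intensity units, with control replicates 2 and 3 the brightest at 390.1 and 388.3. The number of arrays limits the precision of every value. Values below are log2 intensities after background correction and quantile normalization, written as mean ± SD, and differences are log2 differences ± SE with limma's Benjamini-Hochberg adjusted p. For the brighter Map2k2 probe the controls stood at 11.59 ± 0.08, the 1 Mek1 allele group at 10.58 ± 0.15 and the double mutants at 10.85 ± 0.24. That probe stayed above background on all 4 arrays of each group. The dimmer Map2k2 probe measured 5.86 ± 0.35, 5.10 ± 0.41 and 5.05 ± 0.30 and was above background on 4, 0 and 1 arrays of these groups. On 0 of 12 arrays did the Map2k1 probe exceed background, so the Mek1 deletion has no check in these data. Twist2 measured 7.28 ± 0.26, 7.36 ± 0.20 and 7.37 ± 0.23 in the same order. Lung tissue was evident from its markers: 9 of 9 mesenchymal markers, among them Tbx4 and Foxf1, and 8 of 9 epithelial markers, among them Nkx2-1 and Sftpc, were measured, whereas 0 of 6 liver markers were.

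Fgf1, the acidic FGF, which binds all 4 FGF receptors, was higher in double mutants than in both other groups. Its brighter probe (ILMN_2701233) measured 7.95, 7.83, 7.82 and 7.89 in the 4 controls, 7.63, 7.70, 7.82 and 7.61 with 1 Mek1 allele, and 8.25, 8.49, 8.12 and 8.52 in double mutants. All 4 double mutant values lay above all 8 others, while the control and 1 Mek1 allele ranges touched at 7.82. Fgf1 rose 1.39-fold against controls (log2 0.47 ± 0.11, adjusted p = 0.0309) and 1.57-fold against 1 Mek1 allele (log2 0.65 ± 0.11, adjusted p = 0.0356), and the difference between 1 Mek1 allele and controls was -0.18 ± 0.11 (adjusted p = 0.412). A second, dimmer Fgf1 probe (ILMN_2721110) was above background on all 12 arrays and stood at 6.41 ± 0.24 in controls, 6.55 ± 0.13 with 1 Mek1 allele, then 6.79 ± 0.09 in double mutants. Its double mutant values, 6.70 to 6.91, again lay above the 6.18 to 6.66 of controls and the 6.37 to 6.69 of 1 Mek1 allele. That probe did not pass the threshold, at 0.38 ± 0.12 against controls (adjusted p = 0.115) and 0.24 ± 0.12 against 1 Mek1 allele (adjusted p = 0.484), and over the 12 arrays it followed the brighter probe with Pearson r = 0.57.

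Each comparison was refitted 12 times with 1 array left out. In 4 of these fits the array came from the group not compared, which cannot change the difference, only its standard error. The Fgf1 difference against controls passed in 7 of the 12 fits, those 4 among them, with differences of 0.41 to 0.55. It did not pass without control replicate 2 (adjusted p = 0.0934), control replicate 3 (0.0931), control replicate 4 (0.0713), double mutant replicate 2 (0.0905) or double mutant replicate 4 (0.0984). Against 1 Mek1 allele Fgf1 passed in 6 of 12 such fits, with differences of 0.60 to 0.73. There the call was lost without control replicate 3 (adjusted p = 0.0537), control replicate 4 (0.0544), 1 Mek1 allele replicate 1 (0.0638), 1 Mek1 allele replicate 4 (0.0822), double mutant replicate 2 (0.104) or double mutant replicate 4 (0.111). The 2 highest Fgf1 values, double mutant replicates 4 and 2, also had high Y-linked signal, at 7.22 and 7.16, as had control replicate 3 at 7.48 and 1 Mek1 allele replicate 2 at 6.97, against 4.28 to 5.10 on the other 8 arrays. With that signal as a covariate the Fgf1 difference was 0.45 against controls (adjusted p = 0.0568) and 0.63 against 1 Mek1 allele (adjusted p = 0.0714). Without the 2 brightest arrays it was 0.43 (adjusted p = 0.286) and 0.65 (adjusted p = 0.0706), and with array brightness as a covariate 0.39 (adjusted p = 0.149) and 0.71 (adjusted p = 0.0226).

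**Figure D1:**
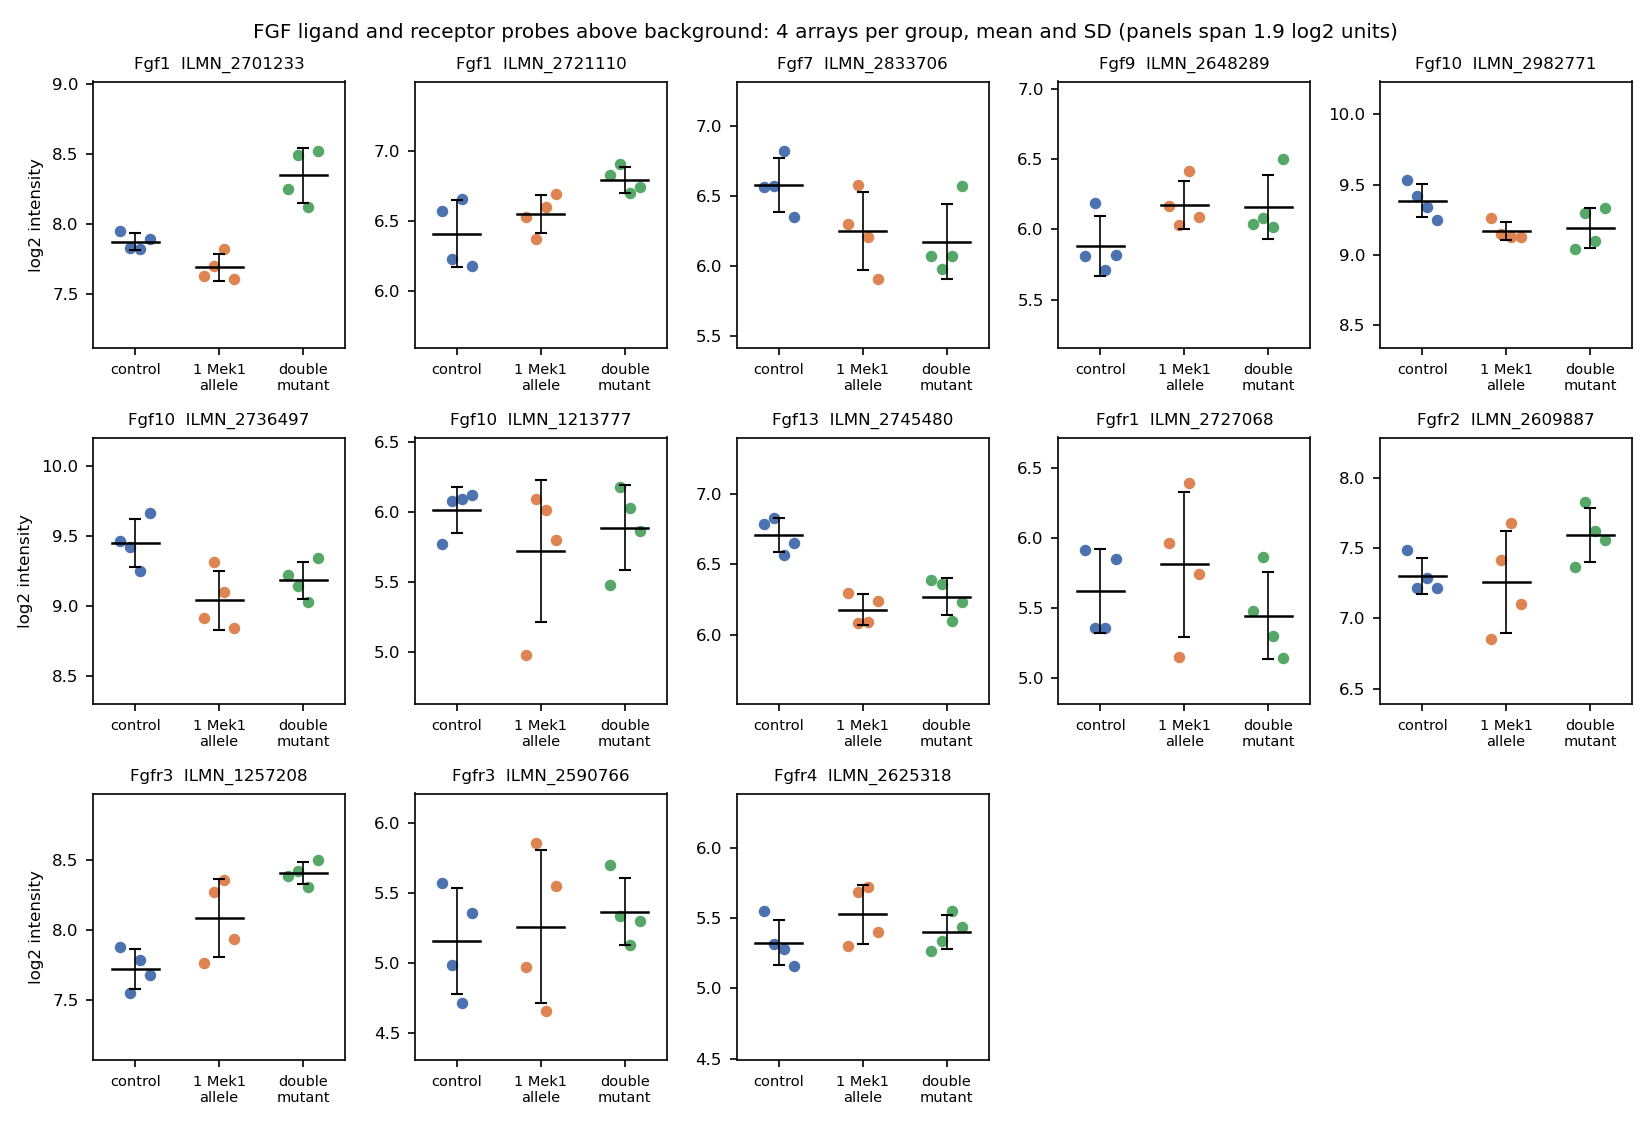
Log2 intensity of each of the 13 FGF ligand and receptor probes above background, 1 panel per probe with its own vertical position, all panels covering the same number of log2 units. Points are the 4 arrays of each group, bars the mean and SD: the brighter Fgf1 and Fgfr3 probes sit above all controls in double mutants, and the Fgf13 probe sits below all controls in both mutant groups.

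Fgfr3, a receptor tyrosine kinase known for its role in restraining cartilage growth and, in the lung, together with Fgfr4 in alveolar development, rose in double mutants. Its brighter probe (ILMN_1257208) measured 7.88, 7.55, 7.79 and 7.68 in controls, 7.77, 8.27, 8.36 and 7.94 with 1 Mek1 allele, and 8.39, 8.42, 8.31 and 8.50 in double mutants. Double mutants lay wholly above controls, and the 1 Mek1 allele values overlapped both. The rise was 1.60-fold against controls (log2 0.68 ± 0.13, adjusted p = 0.0144). With 1 Mek1 allele the mean lay between the other groups, at 0.36 ± 0.13 above controls (adjusted p = 0.195) and 0.32 ± 0.13 below double mutants (adjusted p = 0.377), and neither step passed. With array brightness as a covariate the former difference was 0.15 (adjusted p = 0.772). The second Fgfr3 probe (ILMN_2590766) was above background on only 1, 2 and 2 of 4 arrays for controls, 1 Mek1 allele and double mutants, and gave 0.21 ± 0.25 against controls (adjusted p = 0.697). The Fgfr3 call held in 10 of the 12 single omissions, among them the 4 without a 1 Mek1 allele array, which leave the difference unchanged. It was lost without control replicate 2 (adjusted p = 0.0569) or double mutant replicate 4 (0.0507), at differences of 0.62 and 0.65. It was also lost with array brightness as a covariate (0.55, adjusted p = 0.0878) and without the 2 brightest arrays (0.62, adjusted p = 0.176).

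The promoter of Fgfr3 is shown because it is the receptor that changed. RefSeq (GRCm38.p6, a C57BL/6J reference, while these mice were 129/Sv) has windows from 250 bases before to 50 bases after 2 Fgfr3 start sites, and no source used here says which start the probe reports. Capitals mark GGGCGG, the letters that Sp1-type factors bind, or its reverse complement.
Fgfr3 upstream start, chr5:33721474-33721773, plus strand: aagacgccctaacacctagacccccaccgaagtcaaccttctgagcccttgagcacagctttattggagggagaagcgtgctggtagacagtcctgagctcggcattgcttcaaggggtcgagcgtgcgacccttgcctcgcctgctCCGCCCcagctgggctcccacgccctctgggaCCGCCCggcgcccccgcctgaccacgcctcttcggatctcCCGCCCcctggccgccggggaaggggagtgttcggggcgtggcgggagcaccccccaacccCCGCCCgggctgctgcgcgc
Fgfr3 downstream start, chr5:33722056-33722355, plus strand: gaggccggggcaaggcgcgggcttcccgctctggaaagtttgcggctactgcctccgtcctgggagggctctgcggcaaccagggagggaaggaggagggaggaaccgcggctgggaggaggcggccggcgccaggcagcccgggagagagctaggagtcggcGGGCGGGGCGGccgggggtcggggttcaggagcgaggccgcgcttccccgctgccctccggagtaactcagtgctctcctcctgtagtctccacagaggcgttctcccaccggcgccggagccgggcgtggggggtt
These windows hold 4 and 2 matches to GGGCGG on either strand (the 2 overlap), and 35.7% of 32851 promoter windows of the same length hold at least 1. They contain 26 and 30 CG pairs, against a median of 7 over all windows. CGGAAG, a sequence bound by ETS factors, which act as outputs of ERK, has 0 matches in either window. The shorter ETS core GGAA was not counted. CGGAAG has 0 matches in any of the 12 windows of the 8 members printed or counted here, where 16.9% of all windows hold it on either strand. Fgf1 and Fgfr1 are not among those 8 members. A missing match says only that those letters are not in the window.

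Fgf13 encodes an FGF homologous factor, which stays inside the cell, binds voltage-gated sodium channels and microtubules and is not secreted as a receptor ligand. It was lower in both mutant groups. The 1 measured probe (ILMN_2745480) gave 6.79, 6.83, 6.57 and 6.65 in controls, 6.30, 6.08, 6.09 and 6.24 with 1 Mek1 allele, and 6.39, 6.36, 6.10 and 6.23 in double mutants. All 8 mutant values lay below all 4 controls, and the mutant groups overlapped each other. Fgf13 fell by 0.53 ± 0.10 with 1 Mek1 allele (adjusted p = 0.0314) and by 0.44 ± 0.10 in double mutants (adjusted p = 0.0374), comparisons that share the same 4 controls. The difference between the mutant groups was 0.09 ± 0.10, with a 95% interval of -0.13 to 0.31 (adjusted p = 0.795). Its other 2 probes were above background on 0 of 12 arrays.

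Both Fgf13 calls depended on single arrays. Each count of omissions below includes the 4 fits without an array of the group not compared, which leave the difference unchanged and all passed. The 1 Mek1 allele call survived 6 of 12 omissions and was lost without control replicate 1 (adjusted p = 0.0656), 2 (0.107), 3 (0.0544) or 4 (0.0693) and without 1 Mek1 allele replicate 2 (0.0823) or 3 (0.0801). In double mutants against controls it passed in 5 of 12 and was lost without control replicate 1 (adjusted p = 0.0703), 2 (0.119), 3 (0.0556) or 4 (0.0703) and without double mutant replicate 2 (0.0606), 3 (0.0986) or 4 (0.101). The differences in these fits stayed between -0.58 and -0.49 and between -0.49 and -0.38. In the authors' log2 values, Fgf13 lay at -0.25 with 1 Mek1 allele (adjusted p = 0.071) and at -0.22 in double mutants (adjusted p = 0.0998). Fgf13 is on chromosome X, and with the Y-linked level fitted as covariate it gave -0.54 (adjusted p = 0.0392) and -0.42 (adjusted p = 0.065). Array brightness as a covariate gave -0.55 (adjusted p = 0.184) and -0.45 (adjusted p = 0.117), and fits without the 2 brightest arrays gave -0.54 (adjusted p = 0.206) and -0.45 (adjusted p = 0.214). Neurons are rich in Fgf13, and 2 of 7 neural markers were measured, with the averaged log2 level at 5.51 to 5.84 in controls, 5.31 to 5.93 with 1 Mek1 allele and 5.41 to 5.79 in double mutants. Elavl4 was above background on 0 and Tubb3 on 1 of 12 arrays, and the part of neural cells in the Fgf13 result was not tested.

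RefSeq lists 4 start sites for Fgf13 on chromosome X, far apart on the minus strand, and the probe is not tied to one of them in the sources used here. Their windows are unlike each other: 2 have 37 and 40 CG pairs and 4 matches each to GGGCGG, and the other 2 have 6 and 3 CG pairs and 0 matches.

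The Fgf10 gene, the ligand that drives branching of the lung epithelium, was well above background. Its probe ILMN_2982771 measured 9.53, 9.42, 9.34 and 9.25 in controls, 9.26, 9.15, 9.13 and 9.13 with 1 Mek1 allele, and 9.04, 9.30, 9.10 and 9.33 in double mutants. A second bright probe (ILMN_2736497) measured 9.46, 9.42, 9.25 and 9.66 in controls, 8.91, 9.31, 9.10 and 8.84 with 1 Mek1 allele, and 9.22, 9.14, 9.03 and 9.34 in double mutants. Group means of both probes were lower in the mutant groups than in controls, but the ranges overlapped. Against controls the differences were -0.22 ± 0.10 (adjusted p = 0.297) and -0.41 ± 0.12 (adjusted p = 0.136) with 1 Mek1 allele, and -0.19 ± 0.10 (adjusted p = 0.32) and -0.26 ± 0.12 (adjusted p = 0.28) in double mutants. None passed, and the 95% intervals reached from -0.67 to -0.01 with 1 Mek1 allele and from -0.53 to 0.02 in double mutants over the 2 probes. The third, dim probe (ILMN_1213777) was above background on 11 of 12 arrays and gave -0.30 ± 0.22 and -0.13 ± 0.22.

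Fgf7, keratinocyte growth factor, a mesenchymal ligand of the epithelial form of Fgfr2, measured 6.56, 6.57, 6.82 and 6.35 in controls, 6.30, 6.58, 6.21 and 5.91 with 1 Mek1 allele, and 6.07, 5.98, 6.07 and 6.57 in double mutants. The double mutant mean was -0.40 ± 0.16 from controls (unadjusted p = 0.0273, limma adjusted p = 0.203), with replicate 4 inside the control range. With 1 Mek1 allele the difference was -0.32 ± 0.16 (adjusted p = 0.344). Fgf9 measured 5.81, 6.19, 5.71 and 5.82 in controls, 6.17, 6.03, 6.42 and 6.09 with 1 Mek1 allele, and 6.04, 6.08, 6.02 and 6.50 in double mutants. It lay 0.30 ± 0.14 (adjusted p = 0.319) and 0.28 ± 0.14 (adjusted p = 0.312) from controls, and control replicate 2 lay inside the range of both mutant groups. Fgf18, a ligand made in mesenchyme and important for cartilage and alveolar growth, has 1 probe, which was above background on 0 of 12 arrays, so no statement on its level is possible.

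Fgfr2, the receptor for Fgf7 and Fgf10 in epithelium, has 3 probes, of which 1 (ILMN_2609887) passed the filter. That probe measured 7.49, 7.22, 7.29 and 7.22 in controls, 6.85, 7.42, 7.68 and 7.10 with 1 Mek1 allele, and 7.37, 7.83, 7.62 and 7.56 in double mutants. In double mutants 3 of 4 arrays were above all controls, at a difference of 0.29 ± 0.16 (adjusted p = 0.359), and against 1 Mek1 allele it was 0.33 ± 0.16 (adjusted p = 0.468). The epithelial and mesenchymal splice forms of Fgfr2 cannot be told apart, because no source used here places the probe in the transcript. Its other probes were above background on 0 and on 1 of 12 arrays.

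Fgfr1, the main receptor of lung mesenchyme, was near background: 1 of its probes was above it on 0 arrays, and the other (ILMN_2727068) on 4, 3 and 2 of 4 arrays for controls, 1 Mek1 allele and double mutants. The latter measured 5.62 ± 0.30, 5.81 ± 0.52 and 5.44 ± 0.31, with 95% intervals of -0.69 to 0.34 for double mutants against controls and -0.32 to 0.71 for 1 Mek1 allele against controls. Fgfr4 (ILMN_2625318) was above background on 3, 3 and 2 of 4 arrays and measured 5.33 ± 0.16, 5.53 ± 0.21 and 5.40 ± 0.12. None of its differences passed, the largest being 0.20 ± 0.12 with 1 Mek1 allele against controls (adjusted p = 0.443).

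**Figure D2:**
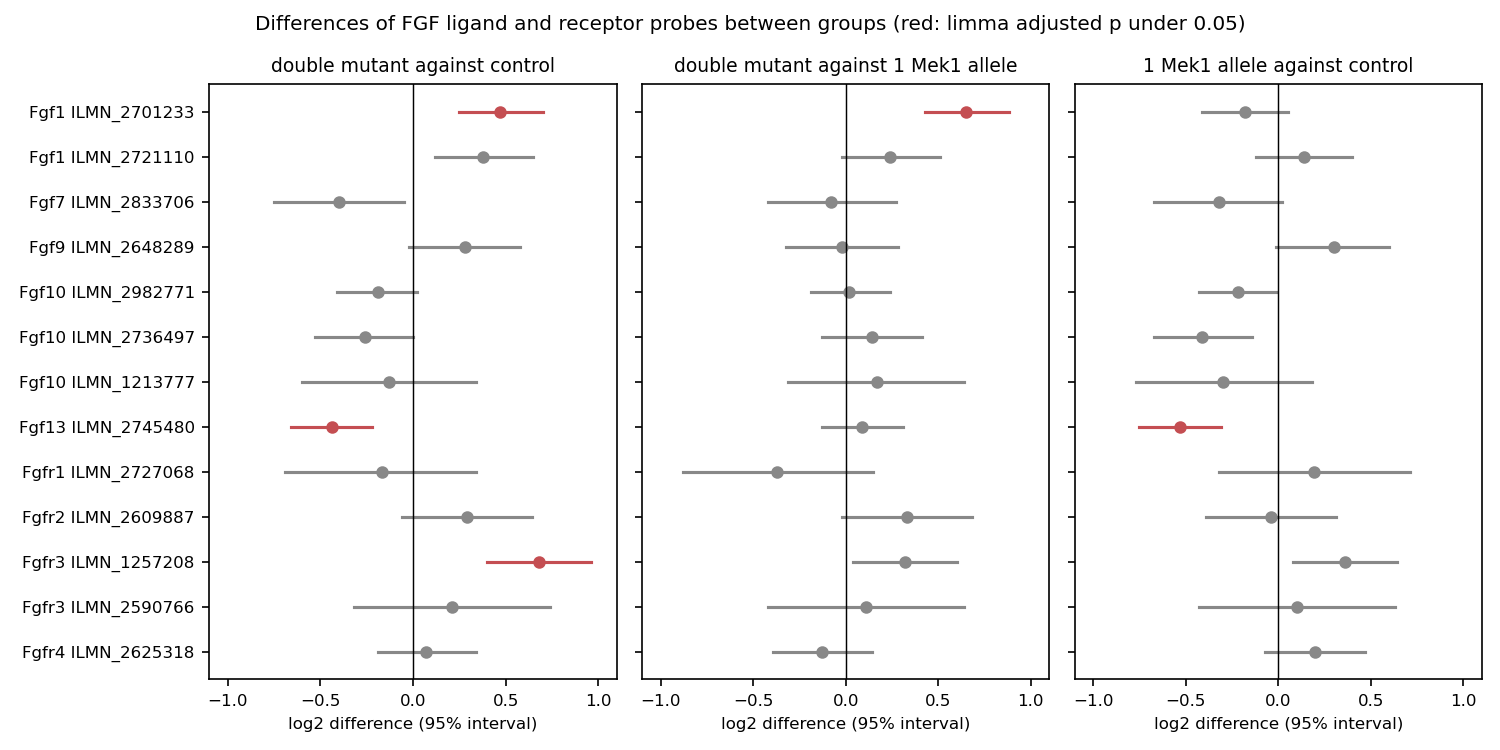
Log2 differences between groups for the 13 measured probes, with 95% intervals from the limma fit, for the 3 comparisons. The 5 red points are the differences past an adjusted p of 0.05: Fgf1, Fgf13 and Fgfr3 in double mutants against controls, Fgf1 against 1 Mek1 allele, and Fgf13 with 1 Mek1 allele against controls.

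Read over the set, double mutants against controls had 3 of 13 probes past the threshold, 2 higher and 1 lower, or 23.1%, where 2.97% of all 11841 probes passed (1.83% higher and 1.14% lower). In 4 of the 13 (30.8%), both Fgf1 probes, Fgfr3 and Fgf13, the 4 double mutant values did not overlap the 4 controls, where 13.4% of all probes did not. In double mutants against 1 Mek1 allele 1 of 13 passed (background 0.397%) and 2 did not overlap (background 6.08%), all of them Fgf1. For 1 Mek1 allele against controls 1 of 13 passed (background 0.819%) and 1 did not overlap (background 9.73%), Fgf13 in both. The median difference over the 13 probes was 0.07, 0.11 and -0.04 in these comparisons, beside -0.006, -0.001 and -0.004 over all probes. As several probes share a gene, the 13 are not independent, and the genes were picked with earlier results of these data known.

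Some markers of mesothelium, macrophages and red cells differed between double mutants and controls, and others of the same lists did not. In the mesothelial list, 4 of 6 measured, the averaged log2 level was 7.80 to 8.01 in controls, 7.68 to 7.91 with 1 Mek1 allele and 8.06 to 8.37 in double mutants, with Msln above background on 1 and Lrrn4 on 0 of 12 arrays. Upk3b and Krt19 of that list rose in double mutants, by 0.65 ± 0.13 (adjusted p = 0.0165) and 0.69 ± 0.15 (adjusted p = 0.0253), whereas Upk1b was at -0.44 (adjusted p = 0.281) and Wt1 at 0.08 (adjusted p = 0.847). For macrophages, 4 of 6 measured, the level was 7.34 to 7.65 in controls, 7.28 to 7.70 with 1 Mek1 allele and 7.60 to 8.34 in double mutants, and C1qc rose by 0.81 ± 0.13 (adjusted p = 0.00686). The other 3 macrophage genes did not pass in double mutants against controls, with C1qa at 0.83 (adjusted p = 0.0882), C1qb at 0.55 (adjusted p = 0.14) and Mrc1 at -0.26 (adjusted p = 0.395), and Mrc1 was at -0.60 with 1 Mek1 allele (adjusted p = 0.0807). Epithelial markers, 8 of 9 measured, ran from 9.03 to 9.40, 9.11 to 9.41 and 9.28 to 9.56, and mesenchymal markers, 9 of 9, from 8.26 to 8.49, 8.31 to 8.49 and 8.21 to 8.55. In double mutants against controls, 7 epithelial genes were higher and 1 lower (median 0.23). For mesenchymal genes the split was 5 and 4 (median 0.04), and 0 genes of either list passed. Cartilage markers, 2 of 8 measured with Acan and Matn1 on 0 of 12 arrays, ran from 7.67 to 8.15, 7.84 to 8.15 and 7.74 to 8.17. Smooth muscle (5 of 6 measured), endothelial (5 of 6) and muscle (2 of 8) lists had 0 genes past the threshold, and of red cell genes (4 of 6) Slc4a1 fell by 1.03 in double mutants against controls (adjusted p = 0.0131). The other 3 red cell genes did not pass there, with Hbb-bh1 at 1.06 (adjusted p = 0.0543), Hba-x at 0.77 (adjusted p = 0.0542) and Alas2 at -0.40 (adjusted p = 0.193). The part of these cells in the Fgf1 and Fgfr3 results was not tested.

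Other genes of the pathway were read from lists, each gene by its brightest measured probe, and 0 genes of these lists passed the threshold in any comparison. Of 16 further FGF ligands, 14 had no probe above background on any array, and Fgf22 was the 1 gene measured, at 0.07 in double mutants against controls (adjusted p = 0.846). Among co-receptors and heparan sulfate genes, which shape how FGFs reach their receptors, 19 of 26 were measured, 9 with positive and 10 with negative differences in double mutants against controls (median -0.05). The smallest p-values were those of Flrt3, a membrane partner of FGF receptors, at -0.42 with 1 Mek1 allele (unadjusted p = 0.00878, limma adjusted p = 0.158), and of the proteoglycan Sdc1 at 0.43 in double mutants against controls (adjusted p = 0.195). The dimmer probe of Flrt3 gave -0.48 and that of Sdc1 gave 0.10 in the same comparisons. Sdc2 gave -0.18 in the latter comparison (adjusted p = 0.275). Adaptors and relay kinases, 8 of 19 measured, had a median of -0.04 in double mutants, with the adaptor Crk at -0.33 with 1 Mek1 allele (adjusted p = 0.118), and Grb2 at 0.44 in double mutants (adjusted p = 0.323). Frs3, a docking protein of FGF receptors, was at 0.32 with 1 Mek1 allele (adjusted p = 0.425).

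Feedback inhibitors and ETS factors, the genes switched on by FGF through ERK, were measured for 7 of 12, with medians of -0.05 in double mutants and -0.08 with 1 Mek1 allele against controls. Dusp6, the phosphatase of ERK, was at -0.35 ± 0.09 with 1 Mek1 allele by its brightest probe (adjusted p = 0.0803), while its other 2 measured probes gave 0.19 and -0.10. In double mutants the brightest Dusp6 probe was at -0.08 against controls (adjusted p = 0.674) and at 0.27 against 1 Mek1 allele (adjusted p = 0.266). Spred1 was at -0.26 with 1 Mek1 allele (adjusted p = 0.242), and Dusp4 at 0.34 in double mutants against 1 Mek1 allele (adjusted p = 0.454). In the list of distal tip genes, 8 of 9 were measured with a median of -0.01 in double mutants. Nkx2-1, Foxa2 and Sftpc of that list are also among the general epithelial markers, so the median does not speak of distal buds alone. No gene of the list passed in double mutants against controls. Id2 was at -0.55 ± 0.24 in double mutants against controls (adjusted p = 0.232), Shh at -0.18 (adjusted p = 0.365) and Bmp4 at 0.14 (adjusted p = 0.414) with 1 Mek1 allele. Mesenchymal regulators of Fgf10 were measured for 5 of 11, with a median of -0.14 in double mutants, Tbx4 at 0.33 with 1 Mek1 allele (adjusted p = 0.257), Hhip at -0.26 in double mutants (adjusted p = 0.452) and Foxf1 at -0.21 in double mutants against 1 Mek1 allele (adjusted p = 0.605).

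**Figure D3:**
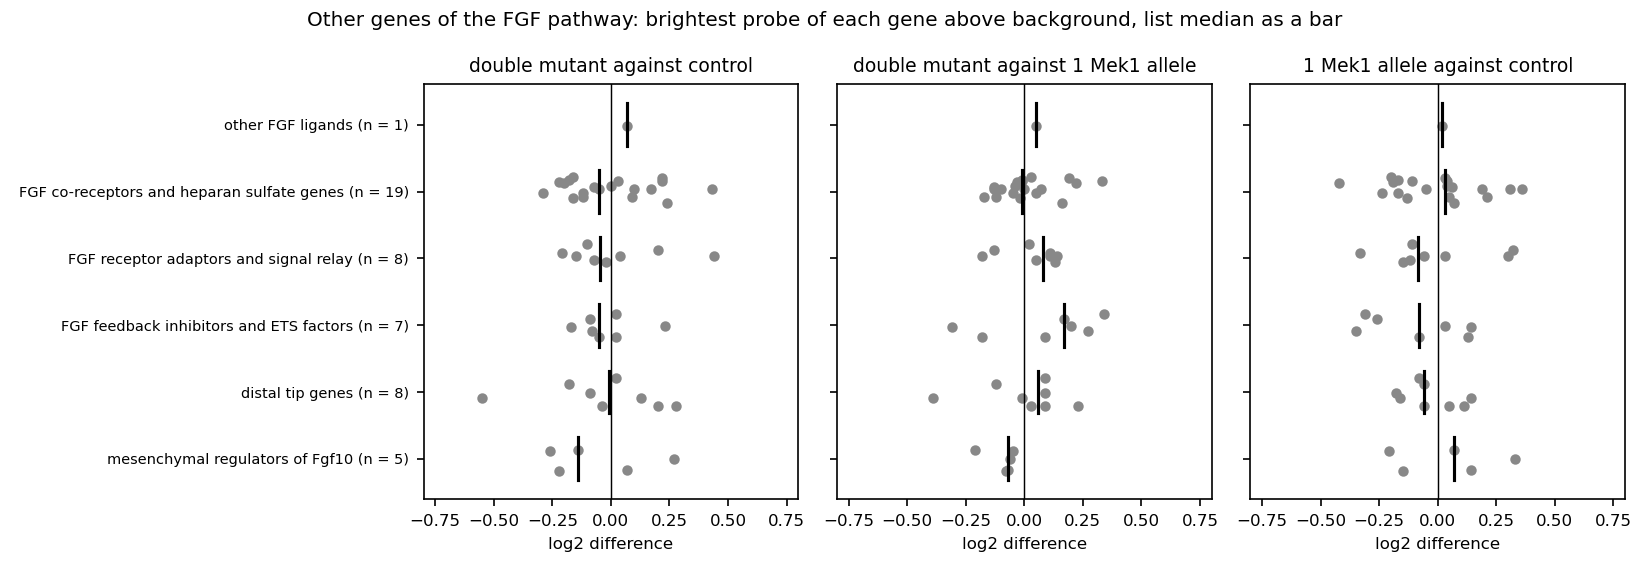
Log2 differences of other FGF pathway genes in the 3 comparisons, 1 point per gene (brightest measured probe) and a bar at the list median. No point is past an adjusted p of 0.05, and list medians lie between -0.14 and 0.17.

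For each measured member, the 3 genes with the most similar log2 values over the 12 arrays were found by Pearson r. These are the highest of all measured probes, the arrays share group differences and array quality, and the values are a description with no test. Fgf1 was closest to Mycl, a Myc family factor (r = 0.953), the club cell P450 Cyp2f2 (r = 0.929) and Aox3 (r = 0.926). Fgfr3 was closest to Ltbp3, which binds latent TGF-beta (r = 0.948), Tmem259 (r = 0.934) and Mapk13, a p38 kinase (r = 0.927). Fgf13 was closest to the microtubule protein Eml1 (r = 0.908), Zdhhc13 (r = 0.907) and Ireb2 (r = 0.9), Fgf10 to Ufl1, Rnase4 and Lamp2 (r from 0.887 to 0.903), and Fgf7 to Eola1, Acvrl1 and Adgrl3 (r from 0.85 to 0.863). The closest to Fgf9 were Gdpd3, Pradc1 and Zswim3 (r from 0.856 to 0.88). For Fgfr1 they were Gsk3b, Ncdn and Atp5g1 (r from 0.884 to 0.903), for Fgfr2 they were C2, Herpud2 and Daam1 (r from 0.883 to 0.899), and for Fgfr4 they were Cc2d1a, Dolpp1 and Sema3f (r from 0.893 to 0.902). Without the 2 arrays farthest from each member's median, r over the other 10 arrays ran from 0.695 for Zswim3 to 0.942 for Ltbp3. After group means were taken out, r was 0.35 for Eml1 with Fgf13 and 0.766 for Mycl with Fgf1.

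**Figure D4:**
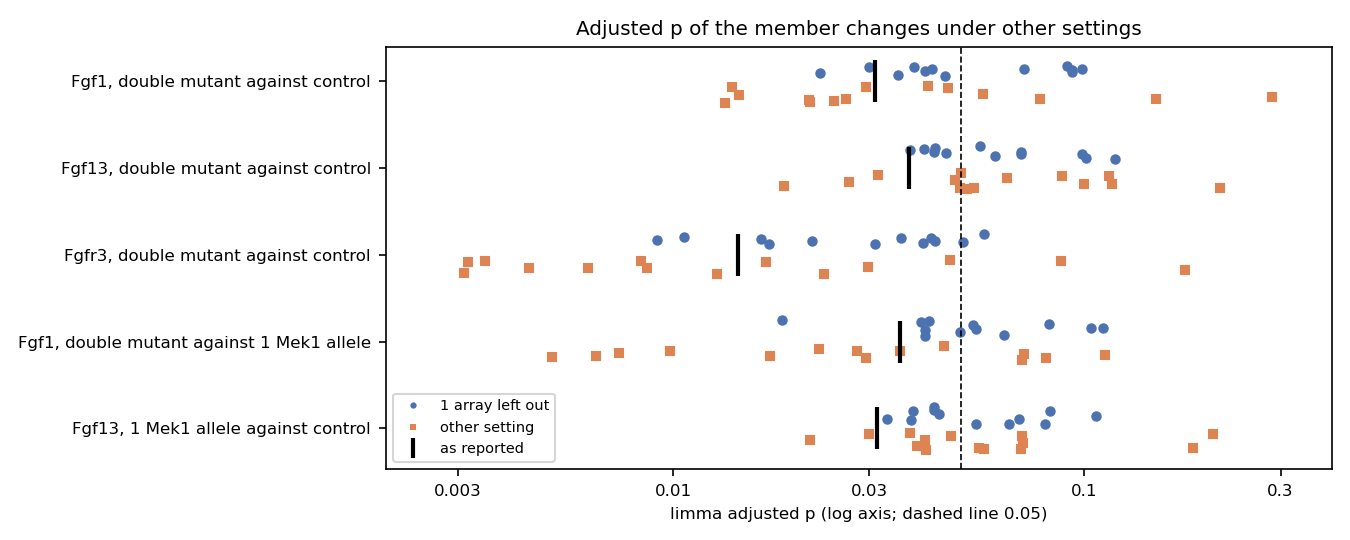
Limma adjusted p (log axis) of the 5 member differences past the threshold, as reported and under the other settings tried, with the dashed line at 0.05. Circles are fits without 1 array and squares are other backgrounds, scalings, filters, variance models, covariates and array choices: Fgfr3 stays left of the line most often, and Fgf13 crosses it most often.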

How the data were processed

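Biotin-labelled RNA from 12 whole-lung specimens (Trizol, then DNase) was read on Illumina bead arrays, according to the labels. In the deposited scanner table stands 1 linear intensity per probe and array, without normalization between arrays, and a deposited detection p-value against each array's negative controls, per the file headers. The authors' deposited matrix holds log2 values, whose median distance from raw log2 intensities after quantile normalization was 0.00386. No source used here names the authors' software.

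Background was fitted by normexp from the detection p-values (offset 16), and log2 values were then quantile-normalized (limma 3.58.1, R 4.3.3). A probe was kept if 4 or more of 12 arrays had detection p under 0.01. Of all probes, 23978 had 1 symbol, 0 several and 1719 none. Current RefSeq symbols left all 19 member symbols as they were. Group means were fitted over 12 arrays with lmFit and eBayes (9 residual degrees of freedom), two-sided, with Benjamini-Hochberg adjustment over 11841 probes at 0.05, and the procedure was tested on simulated data. The members and gene lists were chosen with earlier results of these data known. All member probes are named. In each list, genes past the threshold or otherwise the 3 with the smallest p are named, as are the 3 genes most like each member. Within groups the correlation between arrays was 0.979 to 0.993. Same-numbered replicates did not deviate together (correlations from -0.232 to 0.171), so no pairing was used. Alternatives were other backgrounds, scalings, filters, thresholds, variance models, covariates and array choices.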

Additional observations from a re-analysis of the deposited data

Results flagged for a closer look

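In 39 groups of 4 values (13 probes in 3 groups), 1 array stood apart from the other 3 in 4, where chance alone gives about 1 in 20. Fgf7 in double mutant replicate 4 measured 6.57, against 5.98 to 6.07 on the other 3 double mutant arrays. In the same array Fgf9 measured 6.50, against 6.02 to 6.08. Fgf10 (ILMN_2982771) with 1 Mek1 allele was 9.26 in replicate 1 against 9.13 to 9.15, and the dim Fgf10 probe (ILMN_1213777) in control replicate 1 was 5.77 against 6.08 to 6.12.

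The change of Fgf1 (ILMN_2701233) against controls differed between the mutant groups. It was 0.47 in double mutants and -0.18 with 1 Mek1 allele, a difference of 0.65 that passed in the direct comparison (limma adjusted p = 0.0356). The dimmer Fgf1 probe (ILMN_2721110) gave 0.38 and 0.14 against controls, and its direct difference of 0.24 did not pass (limma adjusted p = 0.484). For the brighter probe the direct difference did not pass with the replicate block (limma adjusted p = 0.0805) or with only the 8 arrays compared (0.112).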

How the results depend on the processing

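Of 28 alternatives, the call of Fgfr3 in double mutants against controls held in 23, that of Fgf1 in 18 against controls and in 17 against 1 Mek1 allele, and that of Fgf13 in 14 with 1 Mek1 allele and in 11 in double mutants. The 28 include thresholds of 0.01 and 0.10, whose outcomes followed from the reported adjusted p. They also include omissions of arrays outside the comparison, which cannot change a difference. No member difference that passed changed sign. For double mutants against controls, where 3 member probes passed, 1 passed with the replicate block (Fgfr3) and 1 with the Y-linked level fitted as covariate. With array brightness as a covariate, without the 2 brightest arrays or at an adjusted p under 0.01, 0 passed. Leaving out each array in turn gave 0 to 3. For double mutants against 1 Mek1 allele, 1 passed (Fgf1), and 0 did at an adjusted p under 0.01, with the replicate block, with the Y-linked level fitted as covariate, in a fit of only the 8 arrays compared or without the 2 brightest arrays. The single omissions gave 0 to 1. For 1 Mek1 allele against controls, 1 passed (Fgf13), and 0 did without background correction, in the authors' log2 values, at an adjusted p under 0.01, with trend and robust variance, with the replicate block, with brightness as a covariate, with the 8 arrays compared or without the 2 brightest arrays. Omissions again gave 0 to 1. The cause of these losses was not tested, apart from the stricter threshold, which lowers counts by construction. With only the 8 arrays compared, 407 of all probes passed in double mutants against controls, where 352 passed as reported. In the same setting 5 passed in double mutants against 1 Mek1 allele (47 as reported). For 1 Mek1 allele against controls 42 passed (97 as reported).

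Replicate numbers in the labels are shared between groups but did not pair the arrays. With the replicate block the differences were the same and the adjusted p was 0.078 and 0.0805 for Fgf1 and 0.0517 and 0.057 for Fgf13. Without the 2 brightest arrays Fgfr3 was at 0.62 (adjusted p = 0.176). Over all probes, 352 passed in double mutants against controls, 148 and 149 without control replicate 2 or 3, 582 in the authors' log2 values, 827 with array weights and 45 without the 2 brightest arrays. For 1 Mek1 allele against controls the totals were 97 as reported, 319 in the authors' log2 values and 15 without the 2 brightest arrays. For double mutants against 1 Mek1 allele they were 47 as reported and 1 with the replicate block. Of the differences that did not pass, 5 moved by more than the spread between replicates. With array brightness as a covariate, 1 Mek1 allele against controls gave -0.32 for Fgf1 (ILMN_2701233), -0.61 for Fgf10 (ILMN_2736497) and 0.15 for Fgfr3 (ILMN_1257208). The dimmer Fgf1 probe in double mutants against controls was at 0.20 both without background correction and in the authors' log2 values. Signal over background limits Fgfr1, Fgfr4, the second Fgfr3 probe and the third Fgf10 probe.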
